A study of Mus musculus with 20 samples.

Results

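Mesonephric tubules are the epithelial tubes of the embryonic kidney that lies beside the developing gonad. The cells described here are the 3775 cells of E10.5 and E11.5 that the authors' cell table annotates as mesonephric tubules, 2695 at E10.5 and 1080 at E11.5. They were drawn from 31632 cells of 8 droplet libraries of urogenital ridges, out of 3919 tubule cells and 94705 cells in the whole series of 20 libraries. The study followed gonadal cell types of XX and XY mouse embryos from E10.5 to E16.5. Each stage had 2 XX and 2 XY libraries, so that n was 4 libraries a stage, and sex had been typed by PCR. All embryos were CD1 from CD-1 females mated with heterozygous Tg(Nr5a1-GFP) males, none was treated, and the transgene, driven by Nr5a1 sequence, served to find the genital ridge during dissection. At E10.5 and E11.5 the dissected tissue held gonad and mesonephros together. The methods call the replicates independent, and the labels do not say how many embryos were pooled for one. The XX and XY libraries of a replicate number share the date in the sample titles, and no date is shared by the stages, so stage and date cannot be told apart.

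The nephric duct, also called Wolffian duct, grows down the embryo and induces the mesenchyme next to it. Through WNT9B from the duct and WNT4 in the induced cells, that mesenchyme forms vesicles, which become tubules and join the duct. PAX2, PAX8 and LHX1 are the transcription factors of this lineage, while CDH16 and EPCAM are adhesion molecules of its epithelia. The tubules later form proximal segments that take up protein, sugar and phosphate from the filtrate. Most of the mesonephros regresses, and in males the duct and the cranial tubules become the epididymis and its efferent ducts.

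Tubule cells were a smaller share of the cells at E11.5 than at E10.5. At E10.5 they made up 22.6% and 18.6% of the cells in the XX libraries and 14.6% and 17.0% in the XY libraries. At E11.5 the XX libraries had 7.89% and 7.10% and the XY libraries 6.07% and 5.54%, so that the stages did not overlap. The mean fell from 18.2 ± 3.36% to 6.65 ± 1.05% (SD, n = 4), a difference of -11.6 percentage points (exact permutation test, two-sided p = 0.0286, the smallest that 4 against 4 libraries allow). That test takes the libraries as independent, while gene levels in the XX and XY tubule sums of 1 date deviated together (r = 0.232 at E10.5 and 0.465 at E11.5). Gene levels are a measure other than the shares. In the shares, replicate 1 was the higher XX and the lower XY library at E10.5, and the higher in both sexes at E11.5. With the libraries of a date averaged, 2 dates against 2 gave an exact permutation p of 0.333, the smallest they allow. Among tubule and mesonephric mesenchyme cells alone, the tubules held 23.2 ± 1.87% at E10.5 and 11.7 ± 1.44% at E11.5 (exact permutation p = 0.0286, n = 4). The share of mesenchyme itself was 60.0 ± 6.37% and 50.9 ± 9.0% (exact permutation p = 0.143, n = 4). The Clopper-Pearson interval (95%, counting error only) was widest in E10.5 XX replicate 1, at 21.03 to 24.31%. How much mesonephros each dissection held is not given, and its part in the shares was not tested. The tubule cells include Leiden cluster 30, described below, which was low in Epcam and Cdh16. It held 1234 of them at E10.5 and 183 at E11.5. Cluster 23 held 1450 and 469, and cluster 37 held 11 and 428. The part of cluster 30 in the fall of the tubule share was not tested.

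Depth also differed by stage. The tubule cells of a library summed to 8266027 to 21114523 UMIs (unique molecular identifiers, 1 per captured transcript) at E10.5 and 2964067 to 6179416 at E11.5. The median tubule cell held 18288 to 26024 UMIs at E10.5 and 14688 to 16715 at E11.5. Mitochondrial genes took 0.967 to 1.26% of the tubule UMIs at E10.5 and 1.29 to 1.86% at E11.5. Between any pair of libraries 6 to 41 cell barcodes were shared, at most 1.05% of the smaller library, and 7 shared barcodes over the 28 pairs were tubule cells on both sides. No cell was removed as a doublet, and a doublet score computed here had a median of 0.455 to 0.519 in tubule cells of E10.5 and 0.606 to 0.694 at E11.5, against 0.544 to 0.566 and 0.484 to 0.528 in all cells of those libraries. With each tubule sum thinned to the smallest total, 4012 genes changed between stages, and without the 5% of tubule cells with the highest doublet score 5266, against 5303 of the full sums described below.

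**Figure D1:**
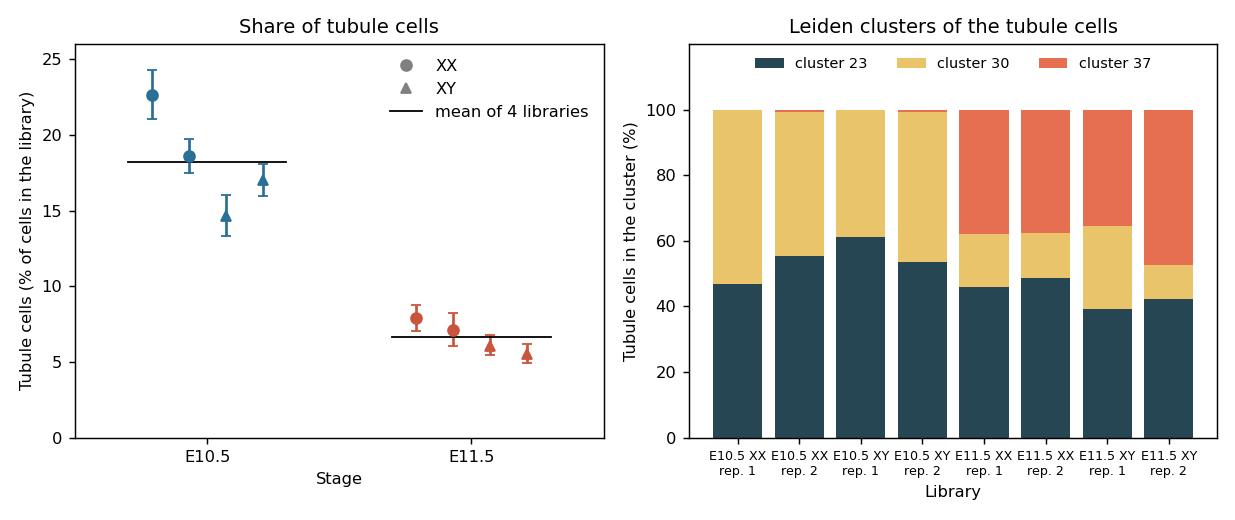
Left, percent of all cells of a library annotated as mesonephric tubules, by stage, with 1 point per library (circles XX, triangles XY) and 95% Clopper-Pearson intervals. Right, percent of the tubule cells of each library in Leiden clusters 23, 30 and 37. The E10.5 libraries sit between 14.6 and 22.6%, all above the E11.5 libraries, and cluster 37 is nearly absent at E10.5 and holds 35.4 to 47.3% of the tubule cells at E11.5.

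The annotation joins 3 Leiden clusters of unlike makeup, and the stages differ in their mix. Cluster 23 held 1450 cells at E10.5 and 469 at E11.5, which is 47.0 to 61.0% and 39.2 to 48.8% of the tubule cells of a library. Cluster 30 held 1234 and 183 cells (39.0 to 53.0% and 10.6 to 25.4%). Cluster 37 held 11 and 428 cells (0 to 0.694% and 35.4 to 47.3%). Clusters were cut from the same genes that are described here, so their levels are a description with no test. They are means ± SD over 4 libraries of UMIs of the gene per 1000000 UMIs of the cluster (CPM).

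Cluster 23 carried the genes of the nephric duct. Gata3, a transcription factor the duct needs, stood at 240 ± 28.9 CPM at E10.5 and 144 ± 55.8 at E11.5. Calb1, which encodes the calcium-binding protein calbindin, was at 408 ± 95.9 and 195 ± 72.9. Wnt9b, the duct's inducing ligand, was at 45.0 ± 9.30 and 61.6 ± 25.4 CPM, and in clusters 30 and 37 at most at 4.77 in any library. A Wnt9b UMI was found in 54.9% of E10.5 tubule cells with a Gata3 UMI and in 2.26% of those without.

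Cluster 37 carried genes of the proximal tubule. At E11.5 it held Hnf4a at 73.4 ± 17.6 CPM, Lrp2 at 118 ± 26.8, Cubn at 23.6 ± 9.51 and Slc34a1 at 34.1 ± 10.2. Hnf4a encodes a transcription factor of absorptive epithelia, Lrp2 and Cubn encode the endocytic receptors megalin and cubilin, and Slc34a1 encodes a sodium-phosphate transporter. In clusters 23 and 30 the highest Slc34a1 value in any library was 1.22 CPM. Gata3 was at 1.45 ± 1.11 in cluster 37.

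Cluster 30 went against the label in its adhesion molecules, and at E10.5 in Lhx1. Epcam was at 12.7 ± 7.26 CPM there at E10.5, against 324 ± 43.4 in cluster 23, and Cdh16 at 2.32 ± 1.74 against 87.5 ± 19.9. Lhx1 was at 23.3 ± 18.8 against 106 ± 28.4 CPM at E10.5, and at 47.9 ± 17.3 against 45.5 ± 5.37 at E11.5. Pax2 and Pax8 were present in cluster 30, at 104 ± 14.9 and 69.8 ± 32.6 CPM at E10.5. It carried genes known from nephric progenitors and induced mesenchyme. Osr1 was at 67.6 ± 19.4, Eya1 at 96.7 ± 35.6, Six2 at 28.9 ± 16.2, Wnt4 at 135 ± 42.7 and Hoxc10 at 172 ± 84.6 CPM. Six2 had 0.261 ± 0.230 CPM in cluster 23 at E10.5 and no UMI in clusters 23 and 37 at E11.5. Col1a1 and Pdgfra, which mark the mesonephric mesenchyme, were at 35.0 ± 8.33 and 7.84 ± 1.86 CPM in cluster 30, and the mesenchyme sums of E10.5 had 250 ± 37.8 and 80.7 ± 12.2. Cluster 30 is called by its number. Over all tubule cells with at least 5000 UMIs, 3.63 to 9.71% in a library of E10.5 and 0 to 1.95% at E11.5 had no UMI of any of Pax2, Pax8, Lhx1, Cdh16 and Epcam, against 79.2 to 86.8% of mesenchyme cells.

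**Figure D2:**
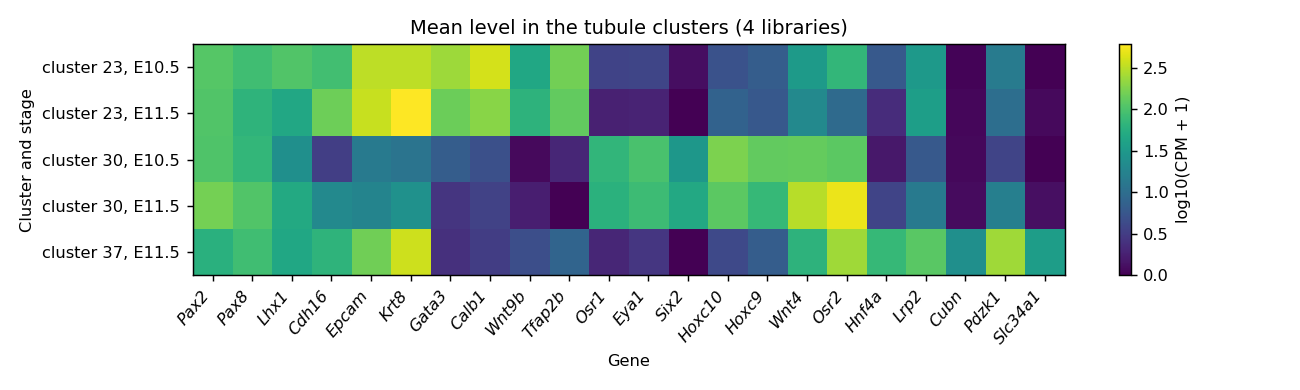
Mean level of 22 genes over 4 libraries in the tubule clusters by stage, as log10 of CPM plus 1 (colour). Cluster 23 is bright for Epcam, Gata3, Calb1 and Wnt9b, cluster 30 for Osr1, Eya1, Six2 and Hoxc10 and dark for Epcam and Cdh16, and cluster 37 (shown at E11.5 only, since it had 11 cells at E10.5) for Hnf4a, Pdzk1 and Slc34a1.

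The change between stages was then tested on the summed UMIs of all tubule cells of a library with edgeR's quasi-likelihood test, with sex in the model. A gene was called where its Benjamini-Hochberg adjusted p was below 0.05 and it moved by 0.361 or more on the log2 scale. Of 14730 genes tested, 2986 were higher at E11.5 and 2317 lower, which is 36.0% of those tested (20.3% higher, 15.7% lower). With the XX and XY libraries of a date summed, 2 dates against 2 gave 2214 higher and 1440 lower, and 13 calls of genes named here were lost, among them those of Lhx1, Cldn8, Fgfr2, Ccnd1 and Sfrp1. Shares of called genes in the lists below are read against these values. Lists and members were chosen with earlier results of these data known, so that reading is a description and no test of enrichment. The median log2 change of all genes was 0.03. Within cluster 23 alone 3482 of 13011 genes (26.8%) were called, and within cluster 30 alone 1586 of 11413 (13.9%; 7.61% higher, 6.28% lower). Of 4747 genes called over all tubule cells and tested in cluster 23, 2838 were called there in the same direction and 28 in the opposite one. In sums over all tubule cells a change within cells and a change in the mix of clusters cannot be told apart, so counts within clusters 23 and 30 are given beside the lists. Since clusters were cut from the same genes, a change within a cluster also depends on which cells were placed in it at each stage. Levels below are TMM-normalized CPM of the tubule sums, in the order XX replicates 1 and 2, then XY replicates 1 and 2, and changes are log2 of E11.5 over E10.5.

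Of the markers used for the type, 1 rose, 1 fell and 3 were not called. Pax8, Epcam and Lhx1 were not confined to tubules in UMIs pooled over the cells of a type. At E11.5 Pax8 stood at 122 CPM in cells annotated as early supporting-like, against 81.1 in tubules. Epcam and Lhx1 stood at 176 and 41.7 CPM in germ cells, against 214 and 46.4 in tubules. Pax2 and Cdh16 were at most at 9.71 and 4.35 CPM in the other types measured at E11.5. Pax2 (chromosome 19, 44756045 to 44837871, GRCm38) was at 114, 111, 113 and 102 CPM at E10.5 and at 100, 79.8, 108 and 75.3 at E11.5 (-0.27, SE 0.13, edgeR adjusted p = 0.128). Pax8 (chromosome 2, 24420560 to 24475599) was at 88.0, 62.3, 100.7 and 61.4 and at 87.9, 64.6, 92.7 and 64.4 CPM (-0.00, SE 0.19, edgeR adjusted p = 0.990). Both factors overlapped between the stages, though within cluster 23 Pax8 was called lower (-0.43). Lhx1 (chromosome 11, 84518284 to 84525535), whose call was lost without any of 4 libraries, fell from 73.3, 55.3, 80.4 and 52.9 to 47.3, 39.2, 42.0 and 50.5 CPM, each E11.5 library being below each E10.5 library (-0.54, SE 0.16, edgeR adjusted p = 0.022). It was called lower in cluster 23 (-1.24) and not called in cluster 30 (1.02). Cdh16 (chromosome 8, 104601911 to 104624396) rose from 32.0, 62.3, 50.1 and 44.6 to 102, 81.5, 86.8 and 95.02 CPM without overlap (0.96, SE 0.18, edgeR adjusted p = 0.00279). It was also higher within cluster 23 (0.73) and cluster 30 (3.16). Epcam (chromosome 17, 87635979 to 87651129) was at 148, 203, 207 and 149 and at 161, 260, 166 and 286 CPM, with the stages overlapping (0.30, SE 0.21, edgeR adjusted p = 0.279).

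Genes of the proximal tubule rose together. Of 21 genes on that list 19 were tested, 17 rose and 1 (Gpx3) fell, with a median log2 change of 2.94, which is the same with Slc34a1 at its bound. Their summed level was 156 to 219 CPM in the E10.5 libraries and 1043 to 1238 at E11.5. Hnf4a (chromosome 2, 163506808 to 163572910) went from 0.720, 3.35, 4.82 and 3.64 CPM to 32.5, 32.1, 33.4 and 27.5 (3.39, SE 0.36, edgeR adjusted p = 9.37e-05). Every E11.5 library lay far above every E10.5 library, and the E11.5 libraries were close to each other.

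Genes of endocytic receptors and transporters rose too. Lrp2 rose from 14.8, 19.6, 21.1 and 19.3 to 66.9, 55.8, 79.0 and 61.9 CPM (1.82, SE 0.14, edgeR adjusted p = 2.3e-05). Cubn rose from at most 0.243 CPM in a library to between 7.10 and 13.1, and Amn, which encodes the membrane partner of cubilin, from at most 3.20 to between 23.7 and 43.7. Dab2, the adaptor of megalin, rose by 2.26. Slc34a1 had no UMI in any E10.5 library and stood at 11.1, 12.9, 17.7 and 16.1 CPM at E11.5, at least 320-fold higher when E10.5 is set to 3 counts over its 4 libraries together. Pdzk1, a scaffold of brush border transporters, rose from 3.14, 8.25, 16.1 and 8.89 to 88.8, 127, 83.0 and 148 CPM (3.71, SE 0.35, edgeR adjusted p = 6.01e-05). Fxyd2, a subunit of the sodium pump, rose by 4.53, from 4.71 to 28.6 CPM at E10.5 to 349 to 476 at E11.5. Slc22a6, an organic anion transporter, rose by 3.02 and Fbp1, an enzyme of gluconeogenesis, by 3.98. Gpx3, a secreted peroxidase, fell from 66.3, 51.8, 48.3 and 57.3 to 34.5, 31.1, 27.5 and 40.8 CPM (-0.74, SE 0.15, edgeR adjusted p = 0.00378).

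Within cluster 23 the list moved otherwise. There 14 of its genes were tested, 4 rose and 3 fell, with a median of 0.12. In cluster 30 9 were tested, 5 rose and 0 fell (median 1.39). Hnf4a was lower at E11.5 in cluster 23 (-1.93), while Lrp2 had 0.19, and cells high in Hnf4a were placed in cluster 37. Fxyd2 was higher there, by 3.32. Dab2 and Pdzk1 had -0.27 and -0.57 in cluster 23, where neither was called, and were called higher in cluster 30 (1.04 and 2.72). Hnf4a in cluster 37 at E11.5 was at 73.4 ± 17.6 CPM and in cluster 23 at 1.28 ± 1.45. When the cells of cluster 37 were left out, 3979 of 14211 genes were called (28%; 16% higher, 12% lower). Then 14 genes of the list were tested, 6 rose and 1 fell (median 0.48), and Hnf4a was not called (-0.74, edgeR adjusted p = 0.386). Of the 29 junction genes described below 24 rose and 0 fell without cluster 37.

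The starts of these genes were searched for the letters that HNF4A is known to bind, to show where such a run lies beside a gene that rose. The motif CAAAGTCC, a core of the HNF4 element, was sought on both strands from 250 bases before to 50 bases after each start in RefSeq promoters of GRCm38.p6. It occurred in 467 of 32851 promoters (1.42%). Promoters were found for 16 of the 21 genes, 22 promoters in all, and those of 3 genes held it, Pdzk1, Slc34a1 and Slc3a1. The 3 sequences are shown with the motif in capitals, and such a match is a description, not a site of binding. Pdzk1 is at chr3:96829815-96830114, Slc34a1 at chr13:55399398-55399697 and Slc3a1, which encodes a subunit of an amino acid transporter and rose by 2.08, at chr17:85028097-85028396, all on the plus strand. The motif starts 14 bases after the start of Pdzk1, 7 bases before that of Slc34a1, where it reads on the opposite strand, and 39 bases before that of Slc3a1.
Pdzk1: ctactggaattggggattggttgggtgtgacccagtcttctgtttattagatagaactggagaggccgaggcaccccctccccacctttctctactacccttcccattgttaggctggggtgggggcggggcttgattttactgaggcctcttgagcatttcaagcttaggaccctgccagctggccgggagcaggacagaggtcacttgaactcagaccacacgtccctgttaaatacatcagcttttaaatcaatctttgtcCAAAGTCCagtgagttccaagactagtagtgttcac
Slc34a1: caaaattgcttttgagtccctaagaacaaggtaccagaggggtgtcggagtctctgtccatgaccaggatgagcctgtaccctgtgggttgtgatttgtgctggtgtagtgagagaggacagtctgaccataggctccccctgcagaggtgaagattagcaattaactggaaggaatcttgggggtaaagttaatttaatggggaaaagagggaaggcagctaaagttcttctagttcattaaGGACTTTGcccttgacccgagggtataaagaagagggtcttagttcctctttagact
Slc3a1: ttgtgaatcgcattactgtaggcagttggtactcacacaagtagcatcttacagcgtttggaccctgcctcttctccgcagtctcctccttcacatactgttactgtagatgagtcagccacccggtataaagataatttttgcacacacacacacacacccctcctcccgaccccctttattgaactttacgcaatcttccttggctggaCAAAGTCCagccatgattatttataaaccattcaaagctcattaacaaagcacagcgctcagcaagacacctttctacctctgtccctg

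**Figure D3:**
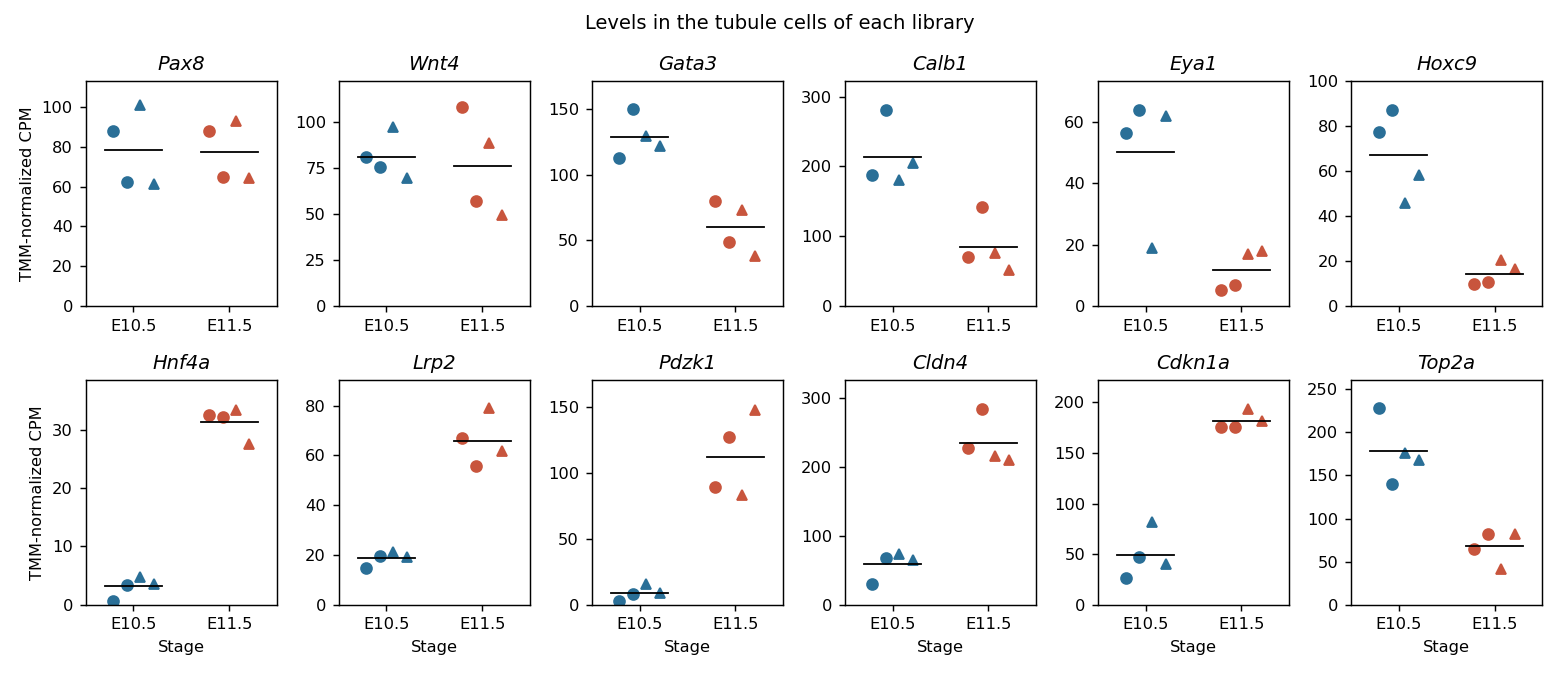
TMM-normalized CPM of 12 genes in the tubule sums of each library by stage (circles XX, triangles XY, bars the mean of 4 libraries), each panel on its own linear axis from 0. Hnf4a, Lrp2, Pdzk1, Cldn4 and Cdkn1a lie higher in every E11.5 library, Gata3, Calb1, Eya1, Hoxc9 and Top2a higher in every E10.5 library, and Pax8 and Wnt4 overlap.

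Genes of epithelial junctions and polarity rose as well. Of 29 listed and tested, 22 rose and 1 (Cldn8) fell, with a median of 1.0, in cluster 23 alone 18 of 29 rose and 0 fell, and in cluster 30 7 of 16 rose and 0 fell. Cldn4, a tight junction claudin, went from 30.1, 67.5, 74.0 and 65.6 to 228, 285, 217 and 211 CPM (2.00, SE 0.25, edgeR adjusted p = 0.000224). Krt8, a keratin of simple epithelia, went from 118, 202, 179 and 204 to 367, 452, 321 and 563 CPM (1.28, SE 0.20, edgeR adjusted p = 0.000993). Cdh1, which encodes E-cadherin, went from 24.2, 42.4, 36.3 and 40.1 to 84.0, 76.8, 76.9 and 90.6 CPM (1.20, SE 0.16, edgeR adjusted p = 0.000407). The stages did not overlap in any of the 3 genes. All 3 were also called higher within cluster 23, by 2.16, 0.90 and 0.91. Cldn6 and Cldn7 rose by 0.98 and 1.0, Krt19 by 1.78 and Muc1, a mucin of the apical surface, by 1.67. Cldn8, a claudin of distal segments, fell by 0.63 with overlapping stages and a call that was lost without any of 3 libraries, from 48.4 to 90.2 CPM at E10.5 to 34.6 to 52.9 at E11.5.

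The duct genes did not move as 1 group. Of 20 genes on the Wolffian duct list 19 were tested, 8 rose and 5 fell, with a median of -0.03. Within cluster 23, which carries the duct genes, 8 of 19 rose and 7 fell (median 0.27), and within cluster 30 1 of 11 rose and 0 fell. The 8 that rose were the keratins Krt8 and Krt18, Cdh1, the claudins Cldn3, Cldn4 and Cldn7, the FGF antagonist Spry1 and the ligand Wnt7b. The 5 that fell were transcription factors and calbindin. Gata3 fell from 113, 150, 129 and 121.7 to 80.4, 48.7, 73.5 and 37.9 CPM (-1.09, SE 0.21, edgeR adjusted p = 0.0029), within cluster 23 by 0.77, and was not called without cluster 37 (-0.36, edgeR adjusted p = 0.147). Calb1 fell from 188, 282, 181 and 206 to 70.5, 142, 75.6 and 51.7 CPM (-1.38, SE 0.23, edgeR adjusted p = 0.00127), and by 0.64 without cluster 37. Every E11.5 library lay below every E10.5 library in both. Ret, the receptor by which the duct answers GDNF, stayed at 3.14 to 8.45 and 3.29 to 8.45 CPM (-0.03, edgeR adjusted p = 0.962), and Wnt9b at 16.4 to 30.4 and 16.8 to 36.8 (0.19, edgeR adjusted p = 0.583).

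Of 16 genes of the RET and FGF pathway tested, 5 rose and 3 fell (20.3% and 15.7% over all genes), with a median of 0.27, and without cluster 37 there were 2 rises and 1 fall. Cluster 23 had 5 rises and 3 falls of 14, and cluster 30 1 rise and 0 falls of 12. Mesonephric mesenchyme had 8 rises and 2 falls of 15 (median 0.58). By the interaction test described below, 9 of 16 genes had a lower change in tubules and 2 a higher one. With the library as a block these counts were 10 and 4. Etv4, a factor induced by RET, fell from 36.0, 31.6, 17.1 and 28.1 to 8.27, 8.12, 11.97 and 12.19 CPM (-1.45, SE 0.25, edgeR adjusted p = 0.00139). Etv5 fell by 0.47 with overlap, a call that was lost without any of 5 libraries and without cluster 37 (-0.21, edgeR adjusted p = 0.462). Fgf8, a survival ligand of the nascent tubule, fell from 19.1, 12.7, 10.8 and 11.6 to 3.28, 5.41, 1.71 and 8.71 CPM (-1.51, SE 0.38, edgeR adjusted p = 0.0111). It was not called without cluster 37 (-0.97, edgeR adjusted p = 0.129). The antagonists Spry1 and Spry2 rose by 0.73 and 1.67, and the receptors Fgfr2 and Fgfr3 by 0.69 and 1.77, where the call of Fgfr2 was lost without any of 3 libraries. Without cluster 37 the calls of Spry1, Fgfr2 and Fgfr3 were lost, with Fgfr2 at 0.47 and Fgfr3 at 0.62 (edgeR adjusted p = 0.091 and 0.069).

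Of 22 genes of tubule induction and patterning, 10 rose and 4 fell, with a median of 0.33. Cluster 23 had 6 higher and 7 lower of 20 tested (median -0.31) and cluster 30 7 higher and 0 lower of 15 (median 1.02). Wnt4 had 81.0, 75.7, 97.6 and 69.8 CPM at E10.5 and 108, 57.5, 88.9 and 49.7 at E11.5 (-0.08, SE 0.23, edgeR adjusted p = 0.800). Its change differed in sign between clusters, at -0.76 in cluster 23 and 0.98 in cluster 30, and that difference was not itself tested. Osr2, a zinc finger factor of tubule precursors, was at 71.4, 62.8, 173 and 60.8 and at 203, 166, 173 and 148 CPM (0.96, SE 0.30, edgeR adjusted p = 0.0293), where E10.5 XY replicate 1 overlapped the later stage and the call was lost without any of 5 libraries. It was lower at E11.5 in cluster 23 (-3.11) and higher in cluster 30 (1.94). The list holds 9 genes of the Notch pathway, which sets proximal fate in nephrons, and 4 of them rose, 1 (Hes5) fell and Dll1, Lfng, Hey1 and Heyl were not called (0.23, 0.25, -0.24 and 0.42). Jag1 rose from 32.5, 32.6, 63.5 and 37.1 to 115, 138, 83.9 and 152 CPM (1.59, SE 0.24, edgeR adjusted p = 0.000648), the receptor genes Notch1 by 1.17 and Notch2 by 1.03. The Notch target Hes1 rose from 90.4, 95.4, 144 and 139 to 595, 345, 544 and 410 CPM (2.05, SE 0.19, edgeR adjusted p = 5.46e-05). Hes5 fell by 1.49, from 3.73 to 6.24 CPM down to 0.676 to 2.97. The list also rose in mesonephric mesenchyme, with 10 of 19 genes higher and 1 lower (median 0.44). By the interaction test described below, 3 of 22 had a higher change in tubules and 5 a lower one.

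Irx1 and Irx2, homeobox genes of intermediate segments, rose by 2.20 and 2.31, and the cadherin gene Cdh6 by 1.61, though it had -0.29 in cluster 23 and 0.63 in cluster 30, not called in either. Of 16 podocyte genes 11 were tested, 5 rose (Podxl, Synpo, Magi2, Clic5 and Nes) and 1 fell (Foxc2). In cluster 23 3 of 8 rose and in cluster 30 6 of 10, with 0 falls in both, and Foxc2 had 0.46 in cluster 30, not called. The slit diaphragm gene Nphs1 was too low to be tested over all tubule cells, and was called higher without cluster 37 (2.91, edgeR adjusted p = 0.00543).

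In the WNT pathway 9 of 21 genes tested rose and 3 fell, with a median of 0.46. Of 19 tested in cluster 23, 6 rose and 3 fell (median 0.23), and of 16 in cluster 30, 9 rose and 1 fell (median 0.96). Of 21 tested in mesonephric mesenchyme, 13 rose and 1 fell (median 0.81). By the interaction test described below, 2 of 22 genes had a higher change in tubules and 4 a lower one. With the library as a block these counts were 4 and 9. Wnt6 rose from at most 1.12 CPM in a library to between 10.3 and 13.9 (4.26, SE 0.47, edgeR adjusted p = 0.000129), and Wnt7b by 2.69. The R-spondin receptor gene Lgr4 rose by 1.65 and the feedback antagonists Znrf3, Notum and Nkd1 by 1.45, 2.25 and 0.93. Lef1, a nuclear mediator, fell by 0.81 (-0.51 in cluster 23 and 0.17 in cluster 30, not called in either). The secreted antagonists Sfrp1 and Sfrp2 fell by 0.55 and 0.96 with overlap, and their calls were lost without any of 5 and of 3 libraries. Axin2, a common target, had 0.46 (edgeR adjusted p = 0.200).

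**Figure D4:**
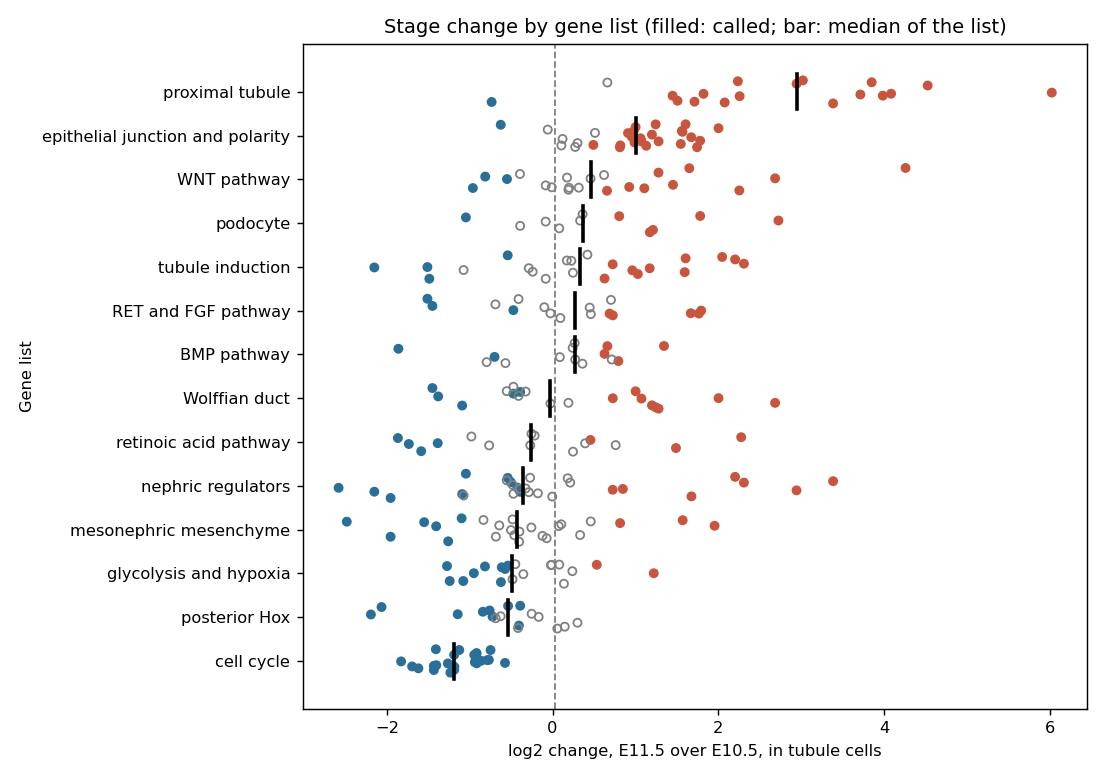
Log2 change from E10.5 to E11.5 in the tubule sums for every tested gene of 14 lists except Slc34a1 (no UMI at E10.5), with filled points for called genes, open points for genes not called and a vertical bar at the median of the list. The dashed line marks the median of all genes (0.03). The proximal tubule list has its median at 2.94, the junction list at 1.0 and the cell cycle list at -1.19.

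The list of nephric regulators had 7 of 28 genes higher and 9 lower in the tubule sums, with a median of -0.36. In cluster 23 it had 2 higher and 9 lower of 23 (median -0.33), and in cluster 30 5 higher and 2 lower of 20 (median 0.49). Irx1, Irx2, Pou3f3, Npnt and Hnf4a were among those that rose. Eya1, which encodes a transcriptional cofactor of nephric progenitors, fell from 56.4, 63.7, 19.1 and 61.9 to 5.15, 6.76, 17.1 and 17.8 CPM (-2.15, SE 0.46, edgeR adjusted p = 0.00449), with E10.5 XY replicate 1 near the E11.5 libraries. Osr1, which marks the intermediate mesoderm, fell from 46.5, 40.5, 14.9 and 41.0 to 5.46, 3.38, 18.8 and 9.48 CPM with overlap (-1.95, SE 0.47, edgeR adjusted p = 0.00849). Six2 was not called (-1.07, edgeR adjusted p = 0.165). Cluster 30, which held these genes, went from 45.5 ± 5.81% to 16.4 ± 6.39% of tubule cells. Within cluster 30 Eya1 and Osr1 had -0.60 and -0.44 (edgeR adjusted p = 0.407 and 0.438). E10.5 XY replicate 1 had the lowest share of cluster 30 among the E10.5 libraries, 39.0%. It was also the lowest of them in Eya1, Osr1, Six2, Hoxc10 and Dlk1. The share ranged from 39.0 to 53.0% over these libraries. Within cluster 30 their levels ranged from 50.4 to 126 CPM for Eya1 and from 38.9 to 80.2 for Osr1. For Hoxc10 and Dlk1 they ranged from 57.7 to 242 and from 331 to 946 CPM. The part of the share of cluster 30 in the low levels was not tested.

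The Hox genes fell or were not called, with 1 exception. Of 17 tested posterior Hox genes 0 rose and 9 fell (median -0.54), and of 16 anterior ones 1 rose and 9 fell (median -0.54). In cluster 23 the posterior genes had 2 rises and 5 falls of 13 and the anterior ones 0 and 4 of 14, and in cluster 30 they had 0 and 2 of 17 and 1 and 1 of 14. Both lists also fell in mesonephric mesenchyme, with 8 of 17 and 6 of 16 genes lower and 1 higher in each (medians -0.25 and -0.49). By the interaction test described below, 3 posterior genes had a higher change in tubules and 2 a lower one (4 and 10 with the library as a block). Anterior genes had 1 and 2 (3 and 4 with the block). Hoxc9 fell from 77.3, 87.2, 45.7 and 58.3 to 9.83, 10.8, 20.5 and 16.6 CPM (-2.19, SE 0.27, edgeR adjusted p = 0.000235), also within cluster 30 (-1.06). Hoxc10 fell from 99.1, 121.9, 22.9 and 116 to 13.3, 15.9, 35.9 and 21.1 CPM with overlap (-2.06, SE 0.49, edgeR adjusted p = 0.00784), a call that was lost without E10.5 XY replicate 2. It had 0.58 in cluster 23 and -0.74 in cluster 30, not called in either. Hoxa9 fell by 0.84 over all tubule cells and by 0.91 in cluster 30, and rose by 1.11 in cluster 23. Hoxb9 stayed at 47.7 to 58.5 and 50.05 to 63.52 CPM (0.15, edgeR adjusted p = 0.358).

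All 24 genes of the cell cycle list fell, with a median of -1.19. Within cluster 23, 20 of 24 fell and 0 rose (median -1.03), and within cluster 30, 13 fell and 0 rose (median -1.05). Top2a, the topoisomerase of dividing cells, went from 228, 140, 176 and 168 to 64.9, 81.5, 42.0 and 82.1 CPM (-1.40, SE 0.21, edgeR adjusted p = 0.00074). Plk1, a mitotic kinase, fell by 1.83, and Mki67 by 0.79 with overlap. Cdkn1a, which encodes the cyclin-dependent kinase inhibitor p21, rose from 26.2, 47.2, 82.2 and 40.3 to 176, 176, 194 and 182 CPM (1.94, SE 0.25, edgeR adjusted p = 0.000298), and the antiproliferative gene Btg2 by 2.39. Of 8 tested genes of cell cycle inhibitors and D cyclins 4 rose and 2 fell (4 and 1 in cluster 23, 4 and 2 in cluster 30). Ccnd1 fell by 0.71, a call that was lost without any of 3 libraries. The inhibitor gene Cdkn1c was called lower without cluster 37 (-0.59, edgeR adjusted p = 0.0488). Beside this, 9 of 14 genes that cells raise during dissociation rose and 0 fell (median 0.80; 7 and 1 in cluster 23, 8 of 13 and 0 in cluster 30), with Atf3 from 12.7 to 97.3 CPM at E10.5 to 396 to 437 at E11.5 and Egr1 higher by 2.34. Their part in the levels of Cdkn1a and Btg2 was not tested.

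Of 19 genes of glycolysis and hypoxia 2 rose and 9 fell, with a median of -0.48. Cluster 23 had 1 rise and 9 falls of 19 and cluster 30 0 rises and 9 falls of 17. Pkm, which encodes pyruvate kinase, fell from 1497, 1076, 888 and 1085 to 404, 535, 415 and 510 CPM (-1.27, SE 0.15, edgeR adjusted p = 0.000207), and Ldha by 1.08. Pfkp and Bnip3 rose by 1.22 and 0.53. In the retinoic acid pathway, 3 of 15 rose and 4 fell (median -0.25), while in cluster 23 7 of 15 rose and 4 fell (median 0.45) and in cluster 30 0 of 10 rose and 4 fell (median -0.30). Crabp2, which carries retinoic acid to the nucleus, fell from 301, 261, 181 and 246 to 69.0, 60.5, 72.7 and 66.2 CPM (-1.87, SE 0.15, edgeR adjusted p = 2.94e-05). Of the synthesis genes, Aldh1a1 and Aldh1a3 rose by 1.49 and 2.28, each from at most 3.14 CPM in a library. Another, Aldh1a2, was not called with a block of sex and replicate number (-0.15, edgeR adjusted p = 0.588). Without cluster 37 Aldh1a2 was called lower (-0.97, edgeR adjusted p = 0.024). Of 14 BMP pathway genes 4 rose and 2 fell, Bmp7 by 0.63 (lost without any of 4 libraries) and Smad7 by 1.34 upward, and Id3 by 0.70 and Bmper by 1.86 downward. In cluster 23 6 of 14 rose and in cluster 30 3 of 14, and none fell in either. The call of Id3 was lost without E10.5 XX replicate 1 and without cluster 37, and those of Id3 and Bmp7 with sums by date. Of 13 imprinted growth genes 3 rose and 7 fell (median -0.68). In cluster 23 the counts were 5 rises and 3 falls of 13 (median 0.0043), and in cluster 30 1 rise and 5 falls of 12 (median -0.36). Dlk1 fell from 530, 430, 146 and 524 to 69.1, 60.9, 89.6 and 67.7 CPM (-2.48, SE 0.35, edgeR adjusted p = 0.000449). Igf2 was not called (-0.08, edgeR adjusted p = 0.865).

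The 12 largest rises among called genes at 10 CPM or more without overlap were Slc34a1, Clrn3, Gm42679, Cyp1a1, Sult1d1, Trh, Mep1a, Dao, Vil1, Prol1, Slc12a1 and Ankrd1. Clrn3 and Gm42679 had no UMI at E10.5, at least 224-fold and 208-fold higher at E11.5 by the same bound. Vil1, which encodes the brush border protein villin, rose from at most 1.29 CPM to between 17.9 and 25.7. Trh, the thyrotropin-releasing hormone gene, rose from at most 0.941 CPM to 21.5, 25.0, 29.2 and 31.0. Slc12a1, which encodes the salt cotransporter of the later loop of Henle, rose from at most 1.99 to 32.8, 16.2, 40.3 and 32.7 CPM and by 4.96 within cluster 23. Without cluster 37 Clrn3 and Dao were too low to be tested, while Cyp1a1, Gm42679 and Ankrd1 were called higher. Cyp1a1, a cytochrome induced through the aryl hydrocarbon receptor, was at 26.4 and 23.9 CPM in the E11.5 libraries of replicate 1 and at 104 and 116 in those of replicate 2, so the size of its rise differed between dates.

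The 12 largest falls were Gpx6, Gm14226, Cck, Lin28a, Gm7879, Asic4, Rps3a3, Dlk1, Asb4, Scd1, Tmem100 and Ntrk2. Gpx6 was at 33.5, 12.4, 1.65 and 12.2 CPM at E10.5 and had no UMI at E11.5, at least 100-fold lower by the bound of 3 counts. Lin28a, an inhibitor of let-7 processing in early embryonic cells, fell from 18.7, 14.3, 8.23 and 16.6 to 2.65, 1.69, 0.760 and 1.94 CPM (-3.01, SE 0.33, edgeR adjusted p = 0.00011). Cck, which encodes cholecystokinin, fell by 3.84 and Ntrk2, a neurotrophin receptor, by 2.24. Rps3a3 is annotated as a processed pseudogene of a ribosomal protein gene, so its reads are uncertain, and its call was lost without any of the 4 libraries of E10.5. It was at 632 and 770 CPM in E11.5 replicate 1 and at 37.5 and 39.5 in replicate 2.

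Against the mesonephric mesenchyme of the same libraries (17395 cells, 9044 at E10.5 and 8351 at E11.5) levels are a description, since the annotation was made from clusters of the same genes. Log2 ratios used CPM plus 1. Of 18161 genes 3798 (20.9%) were above mesenchyme in 8 of 8 libraries and 4203 (23.1%) below. The 12 largest ratios belonged to Cldn6, Cldn7, Cldn4, Crb3, Mal, Tfap2b, Clec18a, 1700011H14Rik, Epcam, Cdh16, Cldn8 and Kif12. Cldn6 stood at 229 ± 43.0 and 449 ± 85.0 CPM in tubules of E10.5 and E11.5 and at 3.13 ± 0.996 and 2.36 ± 0.193 in mesenchyme. Tfap2b, a transcription factor of the duct, was at 82.4 ± 9.24 and 58.4 ± 11.3 in tubules. The 12 lowest ratios were those of Bgn, Col3a1, Dcn, Ebf1, Alx1, Postn, Asb4, Ddr2, Col1a2, Prrx1, Acta2 and Runx1t1, of which Bgn, Col3a1, Dcn, Postn and Col1a2 encode matrix proteins. Bgn, which encodes biglycan, had 4.90 ± 1.29 and 10.9 ± 2.89 CPM in tubules and 81.9 ± 18.3 and 222 ± 17.5 in mesenchyme. All 24 measured genes of the mesonephric mesenchyme list were lower in tubules in 8 of 8 libraries, and their summed level in tubules was 893 to 1624 CPM at E10.5 and 586 to 873 at E11.5, against 4354 to 4897 and 4850 to 5318 in mesenchyme. Pax2 and Pax8 were above mesenchyme in 8 of 8 libraries, by a log2 ratio of 4.75 to 5.47 and 2.72 to 4.67.

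**Figure D5:**
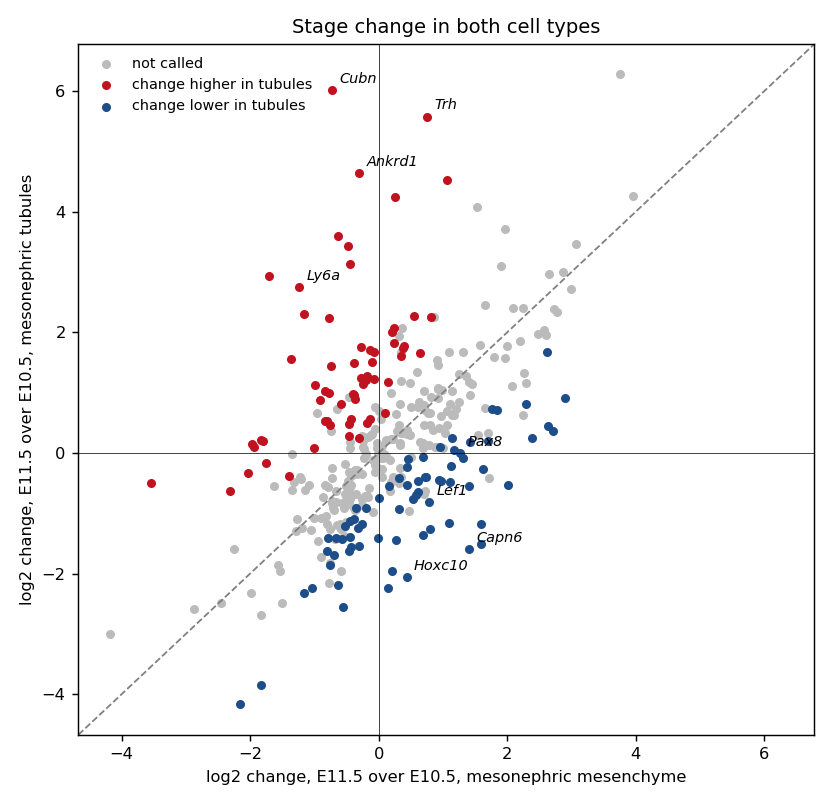
Log2 change from E10.5 to E11.5 in mesonephric mesenchyme (x axis) and in mesonephric tubules (y axis) for the list and named genes tested in both, with genes whose change differed by the interaction test in colour (red higher in tubules, blue lower). The diagonal marks equal change. Ankrd1 and Trh lie far above it, and Capn6, Hoxc10 and Lef1 below it.

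Whether the stage change differed between the types was tested as an interaction in edgeR over 16 sums. Of 18161 genes 2497 were called (13.7%), 1304 with a higher change in tubules (7.18%) and 1193 with a lower one (6.57%). With the library as a block, since both sums of a library come from the same embryos, 4582 of 19199 were called (23.9%), 2124 higher (11.1%) and 2458 lower (12.8%), and counts with the block are read against these shares. Without E10.5 XY replicate 2 the count without the block was 1654. The largest differences were taken among called genes with a mean of at least 10 CPM in tubules of the higher stage. Their log2 ratios of tubules to mesenchyme also had no overlap between stages, though levels in tubules alone could overlap. The 12 largest toward tubules were those of Hao2, Ankrd1, Dao, Trh, Prss12, Unc5cl, Ccser1, Vil1, Lgals3, Ly6a, Cldn10 and Tinag, from 3.86 to 5.04. The call of Lgals3 was lost without any of 5 libraries. The 12 largest the other way were those of RMST_1, Capn6, Tmem59l, Hoxc10, Pcdh19, Ntrk2, Sorbs2, Bcar3, Pdgfrl, Plet1, Kif26b and Hs3st6, from -3.17 to -2.11. In mesenchyme alone 6052 of 19354 genes (31.3%) changed with stage. Of 5104 genes called in tubules and tested in mesenchyme, 2388 were called there in the same direction.

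The proximal tubule list had 12 of 20 genes with a higher change in tubules and 0 with a lower one, and 15 and 0 with the library block. Lrp2 was at 0.609 ± 0.109 and 0.719 ± 0.138 CPM in mesenchyme, and the difference of changes was 1.52 (edgeR adjusted p = 0.000755). Cubn differed by 6.75 and Fxyd2 by 3.40. Pdzk1 was not called without the block (1.71, edgeR adjusted p = 0.112) and was called with it (edgeR adjusted p = 0.0154). Junction genes had 16 of 29 higher and 1 lower (Krt7), with Cldn4 at 1.75, a call that was lost without any of 5 libraries, and Cldn7 at 1.73. Ly6a, a surface antigen gene, was at 26.1, 22.0, 28.9 and 21.3 and then at 168, 148, 164 and 182 CPM in tubules, and at 2.83 ± 1.81 and 1.16 ± 0.209 in mesenchyme (difference 3.91, edgeR adjusted p = 6.26e-05). Ankrd1, a target of YAP signaling, had a change of 4.64 in tubules and -0.30 in mesenchyme (difference 4.88, edgeR adjusted p = 8.21e-06).

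Of the 28 nephric regulators 8 had a higher change in tubules and 4 a lower one, and 11 and 6 with the library block. Pax8 went from 3.85 ± 0.951 to 9.15 ± 1.99 CPM in mesenchyme, a change of 1.27, and the difference of changes was -1.32 (edgeR adjusted p = 0.00589). Lhx1 differed by -1.95 and Emx2 by -1.51. Wnt4 rose in mesenchyme from 42.2 ± 17.1 to 105 ± 24.3 CPM (1.32, edgeR adjusted p = 0.0109), so that the difference was -1.45 (edgeR adjusted p = 0.0283, lost without any of 3 libraries) and the ratio of tubules to mesenchyme went from 1.04 ± 0.767 to -0.54 ± 0.188 on the log2 scale. Lef1 rose by 0.78 in mesenchyme and fell by 0.81 in tubules (difference -1.65, edgeR adjusted p = 4.29e-05). Capn6, a calpain family gene, fell by 1.59 in tubules and rose by 1.40 in mesenchyme (difference -3.07, edgeR adjusted p = 4.69e-05). Hoxc10 differed by -2.65, while Hoxb9 and Sall1 fell in mesenchyme (-1.97 and -1.84) and not in tubules (differences 2.06 and 1.93, edgeR adjusted p = 5.21e-05 and 0.00168).

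Of the 24 cell cycle genes 17 fell in mesenchyme (median -0.53) and 10 had a lower change in tubules, 23 with the library block. Top2a fell by 0.66 in mesenchyme, a difference of -0.80 (edgeR adjusted p = 0.0457) whose call was lost without any of 6 libraries. In the mesonephric mesenchyme list 9 of 24 had a lower change in tubules and 0 a higher one, and 15 and 0 with the block. The dissociation genes had 10 of 14 higher at E11.5 in mesenchyme too, and none differed between the types without the block, while 7 had a lower change in tubules with it. Of the 19 glycolysis genes 10 fell in mesenchyme, and Bnip3, a hypoxia-induced gene, fell there by 0.84 (difference 1.32, edgeR adjusted p = 0.000987). The tubule induction list had 4 genes with a higher change in tubules and 9 with a lower one with the library block. With that block Hes1 and Hes5 had a lower change in tubules (-0.62 and -2.76, edgeR adjusted p = 0.014 and 0.0040). So did Hey1 and Heyl (-0.70 and -0.57, edgeR adjusted p = 0.0026 and 0.021), while Dll1 was not called (-0.097).

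XX and XY tubules differed in 7 of 14730 genes (0.0475%). Higher in XY (0.0339%) were Eif2s3y, Ddx3y, Uty, Gm4017 and Kdm5d, and lower (0.0136%) were Xist and Tsix, the RNAs of X inactivation. Xist was at 1401 and 1419 CPM in the XX libraries of E10.5 and at 1425 and 1065 at E11.5. In the XY libraries it was at 0.235 and 0.680 at E10.5 and at 0.95 and 24.0 at E11.5, so E11.5 XY replicate 2 had more than the other XY libraries. DESeq2 called 8 genes. Whether the stage change differed by sex was tested as an interaction, and edgeR called 0 of 15240 genes (281 at an unadjusted p below 0.05), as did DESeq2 (174 at an unadjusted p below 0.05).

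Germ cell, endothelial, immune and coelomic epithelium genes were low in the tubule sums, and some of them moved with stage. Erythrocyte genes reached higher levels, which varied between libraries of a stage. Of 6 tested germ cell genes 3 rose in tubules (Pou5f1, Dppa3 and Dppa5a), and 6 of 9 rose in mesenchyme; Dppa5a rose by 3.46 in tubules and 3.07 in mesenchyme. The summed germ cell list was at 11.53 to 16.96 CPM at E10.5 and 28.7 to 52.6 at E11.5, and the defining genes Dazl and Ddx4 were too low to be tested, while in the fit with a replicate block Dazl was tested and rose (3.2, edgeR adjusted p = 0.00421). That block pairs libraries of the stages that share sex and a replicate number but no date. Such libraries did not deviate together (r = -0.139 and -0.0109), so the pairing is arbitrary. Hemoglobin and other erythrocyte genes summed to 42.2 to 446 CPM at E10.5 and 82.5 to 1296 at E11.5, with 1 of 7 tested (Hbb-bt) higher, a call that was lost without any of 3 libraries, and with the replicate block Hbb-bs was called higher too (2.20, edgeR adjusted p = 0.000194). In the mesenchyme sums the erythrocyte genes had 49.2 to 439 CPM at E10.5 and 94.3 to 1293 at E11.5. The endothelial list summed to 39.4 to 44.4 and 41.4 to 48.0 CPM, and the immune list to at most 3.38, where Csf1r was called higher with the replicate block (2.45, edgeR adjusted p = 0.022). Coelomic epithelium genes summed to 20.8 to 28.4 and 39.7 to 64.4 CPM, with Upk3b (lost without any of 4 libraries), Lhx9 and Krt19 higher. The GFP transgene stood at 75.98 CPM over all tubule cells of E10.5 and 97.8 at E11.5, against 1707 and 1469 in the coelomic epithelium. The part of RNA from these cells in the stage changes was not tested.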

How the data were processed

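Droplet 3' RNA counts of 8 libraries of urogenital ridges (2 XX and 2 XY at E10.5 and at E11.5) were used. Per the study's methods, the authors aligned reads with Cell Ranger 2.1 to GRCm38 with a GFP sequence added and named Leiden clusters from known markers. The deposited matrix holds raw UMI counts of 94705 cells and 26397 genes. The deposited cell table gives the total count and gene count per cell. In 41266 cells its total equals the sum of the matrix, and the matrix was used. Its scores per cell (S, G2M and pathway scores deposited by the authors) were not used. Clusters were made by the authors with replicates merged by BBKNN, which can move cells between clusters.

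The counts of each cell type were added up within each library. Stage was tested with edgeR 4.0.16 (quasi-likelihood, TMM scaling, filterByExpr, sex in the model), and as an interaction of type and stage over tubule and mesenchyme sums. Calls took a Benjamini-Hochberg adjusted p below 0.05 and a natural-log fold change of at least 0.25 (0.361 on the log2 scale). TMM assumes that most genes do not change, and the median log2 change was 0.0326 (0.00581 by DESeq2 1.42.0). Shares were compared by exact permutation tests over libraries, with the two-sided p as 2 times the smaller tail. The tubule and mesenchyme sums of 1 library come from the same embryos and deviated together (r from 0.454 to 0.668). Alternatives were DESeq2, no filter, no fold threshold, each library left out, blocks, sums by date, 1 sex, equal cells, thinned sums, doublet scores and single clusters. Named genes were the members of the gene lists, the 5 markers, the 12 largest rises and falls among called genes without overlap and with a mean of at least 10 CPM, the 12 largest ratios each way to mesenchyme with at least 20 CPM and the same sign in 8 libraries, and all sex calls; some of these genes are not reported here. Members and lists were chosen with earlier results of these data known. Intervals cover counting error only.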

Additional observations from a re-analysis of the deposited data

Results flagged for a closer look

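In 316 groups of 4 libraries, 1 value stood apart from the other 3 by Dixon's test in 16 groups, and chance alone flags about 1 in 20. E10.5 XY replicate 1 was the library apart in several of them. It was the lowest of the E10.5 libraries in Eya1 (19.1 CPM), Etv5 (14.5) and Sall1 (27.2), and the highest in Osr2 (173), Jag1 (63.5), Dppa5a (1.88), Dppa3 (1.65) and Clic5 (1.65). E10.5 XX replicate 1 was the lowest in Fgfr2 (45.2 CPM), Krt18 (164) and Hao2 (0.262). At E11.5, XX replicate 2 was the lowest in Fxyd2 (349 CPM) and Krt7 (39.6) and the highest in Cldn3 (113). XY replicate 2 was the highest in Pou5f1 (8.71 CPM) and Unc5cl (17.2).

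The stage change differed between tubules and mesenchyme in 2497 genes by the interaction test of edgeR. As changes in tubules minus changes in mesenchyme on the log2 scale, the genes with a higher change in tubules included Cubn at 6.75, Hao2 at 5.04, Dao at 4.79, Vil1 at 4.04, Tinag at 3.86, Fxyd2 at 3.40 and Lrp2 at 1.52. Further genes with a higher change were Ankrd1 at 4.88, Trh at 4.79, Prss12 at 4.59, Unc5cl at 4.32, Ccser1 at 4.17, Lgals3 at 3.94 (lost without any of 5 libraries), Ly6a at 3.91, Cldn10 at 3.87, Cldn4 at 1.75, Cldn7 at 1.73 and Bnip3 at 1.32. Among transcription factors Hoxb9 had 2.06 and Sall1 1.93. Factors and signals with a lower change were Hoxc10 at -2.65, Lhx1 at -1.95, Lef1 at -1.65, Emx2 at -1.51, Wnt4 at -1.45 and Pax8 at -1.32. Other genes with a lower change were RMST_1 at -3.17, Capn6 at -3.07, Tmem59l at -2.83, Pcdh19 at -2.60, Ntrk2 at -2.44, Sorbs2 at -2.43, Bcar3 at -2.31, Pdgfrl at -2.24, Plet1 at -2.16, Kif26b at -2.15, Hs3st6 at -2.11, Krt7 at -2.04 and Top2a at -0.80.

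Cells annotated as tubules also occurred in the gonad libraries of later stages, 144 in all, where no comparison was made. At E12.5 XX replicate 2 held 100 (1.95% of its cells), XX replicate 1 held 4, XY replicate 1 held 16 and XY replicate 2 held 12. At E13.5 the XY libraries held 4 and 5 and XX replicate 2 held 3, and at E16.5 no library held any. Of the 100 cells 76 were in cluster 37 and 23 in cluster 23.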

How the results depend on the processing

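Leaving out 1 library at a time gave 4193 to 5393 stage calls in tubules, 5184 to 6378 in mesenchyme, 1654 to 2618 differences between the types, 6 to 7 sex calls and a difference in tubule share of -12.8 to -10.1 percentage points, for which 3 against 4 libraries cannot give an exact permutation p below 0.0571 when the smaller tail is doubled. The lowest count of differences, 1654, was reached without E10.5 XY replicate 2. XX libraries alone gave 2731 stage calls and XY libraries alone 1193, each with 4 of the 8 libraries. Within cluster 23 there were 3482 calls and within cluster 30, an alternative chosen after seeing the data like those on doublets and cluster 37, 1586. DESeq2, no filter, no fold threshold, stage alone in the model, sums by date, equal cell numbers and thinned sums left the total of calls within 1.5 times, though sums by date gave 2214 higher and 1440 lower calls in tubules, against 2986 and 2317. With those sums 13 calls of genes in the text were lost, those of Bmp7, Bnip3, Ccnd1, Cldn8, Etv5, Fgfr2, Hbb-bt, Id3, Lhx1, Pcdh19, Rps3a3, Sfrp1 and Upk3b. With libraries of a date averaged, chosen after seeing the data, the difference in tubule share was -11.6 percentage points with an exact permutation p of 0.333, the smallest that 2 dates against 2 allow. The leaving out of cells by the authors' doublet score was not run, since the cell table used here holds no such column.

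With the library as a replicate block the differences between the types numbered 4582. The replicate block of sex and replicate number gave 5032 stage calls in tubules and 5914 in mesenchyme, and the date block 7 sex calls. Libraries of the same sex and number at the 2 stages did not deviate together (r = -0.139 and -0.0109), so they share a number only.

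Of 195 gene results in the text, 23 of 3727 alternative values turned sign where the value was called in the full test or the alternative, all within clusters or without cluster 37, and the cause was not tested. Signs that turned in values called in neither are not counted. Within cluster 23 the log2 change was -0.29 for Cdh6, -0.27 for Dab2, -0.90 for Dll1, -1.93 for Hnf4a, -0.57 for Pdzk1, -3.11 for Osr2, -0.17 for Nkd1, 1.11 for Hoxa9, 0.58 for Hoxc10, 0.22 for Hs3st6 and 0.23 for Sfrp1. Within cluster 30 it was -0.40 for Cldn7, -0.20 for Ly6a, -0.15 for Spry1, 0.46 for Foxc2, 0.17 for Lef1, 1.02 for Lhx1, 0.35 for Pcdh19, 0.48 for Sfrp2 and 0.98 for Wnt4. Without cluster 37 it was -0.0054 for Cdh6, -0.74 for Hnf4a and 0.13 for Cldn8. The calls of these 3 genes were lost there, as were 24 further stage calls, those of Amn, Bnip3, Ccnd1, Dab2, Etv5, Fgf8, Fgfr2, Fgfr3, Foxc2, Gata3, Hoxa9, Id3, Kif26b, Lef1, Lhx9, Nkd1, Osr1, Osr2, Pcdh19, Pdzk1, Sfrp1, Sfrp2, Spry1 and Tmem59l. In 17 genes the stage call was lost without at least 1 library, most often in Kif26b (6 libraries), in Etv5, Osr2 and Sfrp1 (5 libraries each) and in Bmp7, Lhx1, Rps3a3 and Upk3b (4 each), then in Ccnd1, Cldn8, Fgfr2, Hbb-bt and Sfrp2 (3 each) and in Hoxc10, Id3, Pou3f3 and Synpo (1 each). Of the differences between the types, those of Top2a (6 libraries), Cldn4 and Lgals3 (5 each) and Wnt4 (3) were lost likewise, as was the sex call of Xist without either XY library of E10.5.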
